A study of Mus musculus with 12 samples.

Results

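Axon guidance ligands and receptors were followed in side population cells from mouse eye muscle and leg muscle: the extraocular muscles (EOM), and the tibialis anterior (TA), which lies along the shin. The members were all probe sets of the array whose only gene symbol in the platform annotation was a semaphorin of the Sema3 to Sema7 classes, a plexin, a Slit, a Robo receptor (Robo1 to Robo3), a netrin, an Unc5 receptor, Dcc, Neo1, an Eph receptor or an ephrin. They came to 147 of 45101 probe sets and 66 of 18194 named genes. Side population cells are those that pump out the dye Hoechst, a property shared by stem and progenitor cells of several tissues. The design sets EOM, which are muscles of the head, against a limb muscle. Per the labels, 6 separately isolated EOM preparations and 6 TA preparations were each hybridized to 1 Affymetrix mouse array after 2 rounds of RNA amplification. The labels name no treatment and no genotype, and the strain, age and sex of the mice are not given in the sources used here. Values are MAS5 signals, which combine the probes of a probe set into 1 brightness on a linear scale. Arrays carry no read depth, so the 6 arrays per group set the precision. Signals of different probe sets are not compared with each other.

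Guidance molecules were first known as the cues that steer growing axons, and the same ligands and receptors act on blood vessels, immune cells and mesenchyme. Semaphorins signal through plexins, and most of the secreted Sema3 proteins need a neuropilin as co-receptor. Slits bind Robo receptors, netrins bind Dcc, neogenin (Neo1) and the Unc5 receptors, and ephrins bind Eph receptors on the neighbouring cell. In vessels, Plxnd1, Unc5b, Efnb2 and Ephb4 are well known from endothelial cells.

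Of the 66 member genes, 55 had at least 1 probe set above the level filter, which dropped the dimmest 40% of probe sets by their mean on all 12 arrays. Each gene stands by its tested probe set with the highest mean. The difference was taken on log2(signal + 16), EOM minus TA, and fitted with limma over all 27022 tested probe sets, with Benjamini-Hochberg adjustment. A gene passed the threshold at an adjusted p under 0.05. In EOM, 7 of the 55 genes were higher and 8 were lower, which is 12.7% and 14.5% of them. Over all 13067 genes tested, 4.05% were higher and 6.81% lower, 10.9% in all. With quantile normalization the members gave 4 higher and 7 lower. By probe sets, that setting gave 4 higher and 9 lower of the 86 member probe sets tested. Over all 27022 probe sets tested it gave 816 higher and 1183 lower. Median log2 fold changes were -0.03 over the 55 members and -0.04 over all genes tested. The genes higher in EOM were Sema3c, Sema3e, Slit2, Robo1, Ntn1, Neo1 and Ephb3. The genes lower in EOM were Sema3g, Sema4d, Sema6a, Sema7a, Plxnd1, Unc5b, Efna1 and Epha2. Calls in both directions were found among ligands (4 higher and 5 lower of 33 tested) and among receptors (3 higher and 3 lower of 22 tested). In 5 member genes (Sema3e, Sema7a, Plxnd1, Robo1 and Efna1) the 6 EOM arrays and the 6 TA arrays did not overlap, and 7.13% of all genes tested (5.43% of probe sets) showed no overlap.

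**Figure D1:**
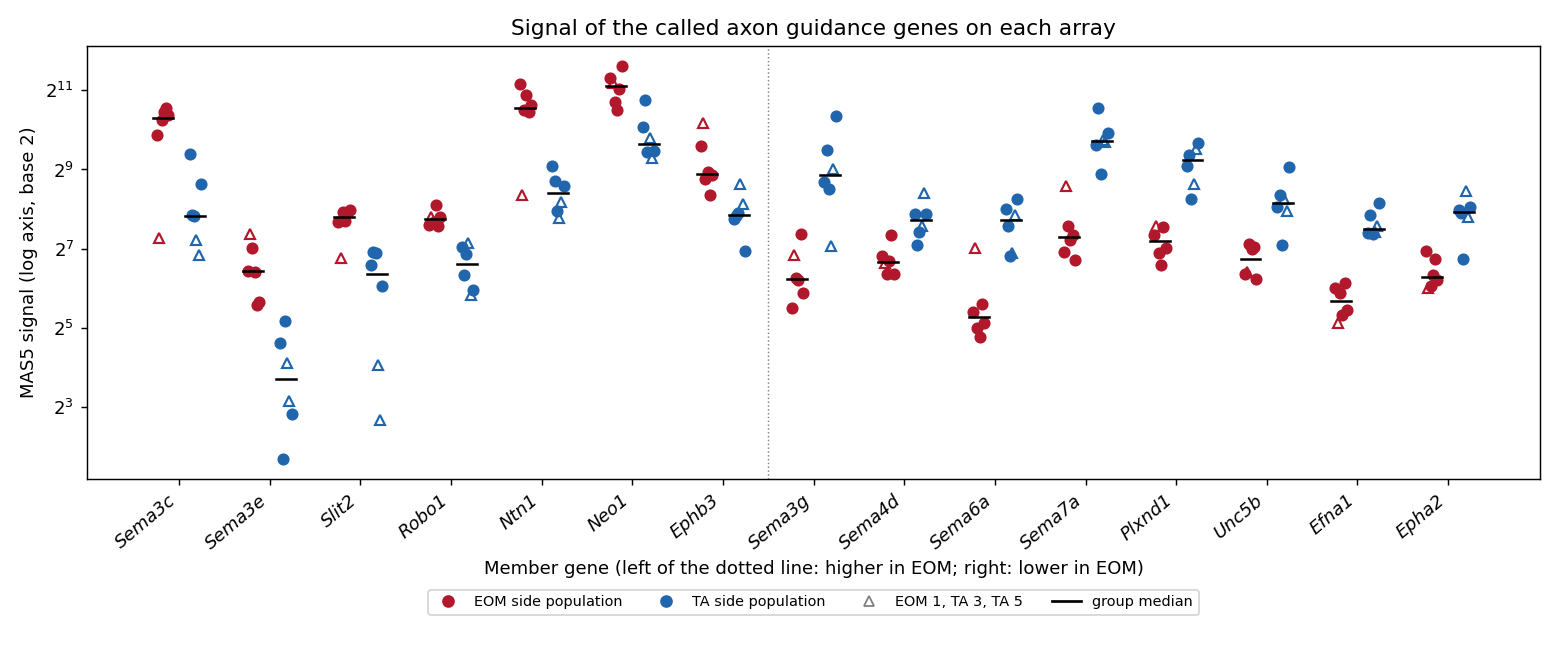
Signal (log axis, base 2) on each of the 12 arrays for the 15 member genes past the threshold, EOM left of TA for each gene. Points are arrays, triangles are EOM 1, TA 3 and TA 5, and bars are group medians; for Sema3c, Slit2 and Ntn1 the EOM 1 triangle lies apart from the other 5 EOM arrays.

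Array EOM 1 stood apart from the other EOM arrays, and it touches many values below. EOM 1 had a median signal of 87.2 over all probe sets. TA 3 (69.6) and TA 5 (63.2) came next, and the other 9 arrays lay between 31.2 and 43.4. Without EOM 1, 22 member genes passed, 9 higher and 13 lower, against a share of 20.5% over all genes. Without EOM 1, TA 3 and TA 5, 23 passed, 9 higher and 14 lower, against 21.8% over all genes. All 15 genes called with 12 arrays were called in both of these fits. Markers of other cell types moved with the comparison as well. Of 20 endothelial markers 18 were lower in EOM, and their summed signal per array was 2595 to 4730 in EOM and 21709 to 54596 in TA. Of 10 pericyte and smooth muscle markers tested 8 were lower (summed signal 6183 to 10730 in EOM, 20526 to 34523 in TA). Of 10 leukocyte markers 9 were lower (468 to 4526 in EOM, 4925 to 13197 in TA), and of 12 fibroblast markers 7 were higher (119376 to 168815 in EOM, 69513 to 124456 in TA). No glial marker of 8 tested passed (1299.8 to 23021 in EOM, the highest on EOM 1, and 2099 to 4564 in TA). Of 7 neuronal markers 1 was higher and 1 lower (683 to 949 in EOM, 253 to 590.3 in TA). No defining marker was listed at 0, which does not show detection, as no detection calls were used. Tubb3 and Snap25, the defining neuronal markers, fell under the level filter. They averaged 16.1 and 12.2 in EOM and 14.65 and 19.0 in TA. Pecam1 and Cdh5, which define endothelium, averaged 30.3 and 66.3 in EOM and 192 and 1149 in TA. Of 4 satellite cell markers tested none passed (116 to 653 in EOM, 147 to 335 in TA), with estimates from -1.28 for Myod1 to 0.94 for Musk. The satellite cell factors Pax7 and Myf5 averaged 5.73 and 7.57 in EOM and 52.9 and 30.7 in TA and were not tested. The part of these cell types in the results below was not tested, and in bulk RNA fewer cells of a type and less RNA per cell cannot be told apart.

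Both genes were called in several known ligand and receptor pairs, among them Efna1 with Epha2 and Ntn1 with Neo1 or Unc5b. Sema3e with Plxnd1 and Slit2 with Robo1 are 2 further such pairs, picked here as examples. Their promoters, from 250 bases before to 50 after the start of the gene, are given here 5′ to 3′ from RefSeq (build GRCm38.p6), to show what the pairs share besides their measured differences. They lie at chr5:14025026-14025325 (plus strand) for Sema3e, chr6:115994956-115995255 (minus strand) for Plxnd1, chr5:47982905-47983204 (plus strand) for Slit2 and chr16:72662899-72663198 (plus strand) for Robo1. Capitals mark the GC box GGGCGG and the ETS-type motif AGGAAG on either strand (read as CCGCCC and CTTCCT on the other).
Sema3e: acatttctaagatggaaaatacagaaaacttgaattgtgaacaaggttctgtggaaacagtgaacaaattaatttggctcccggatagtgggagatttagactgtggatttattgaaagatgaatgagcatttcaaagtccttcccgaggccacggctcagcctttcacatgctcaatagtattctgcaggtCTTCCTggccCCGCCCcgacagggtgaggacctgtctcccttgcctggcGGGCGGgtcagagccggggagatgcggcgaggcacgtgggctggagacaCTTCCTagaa
Plxnd1: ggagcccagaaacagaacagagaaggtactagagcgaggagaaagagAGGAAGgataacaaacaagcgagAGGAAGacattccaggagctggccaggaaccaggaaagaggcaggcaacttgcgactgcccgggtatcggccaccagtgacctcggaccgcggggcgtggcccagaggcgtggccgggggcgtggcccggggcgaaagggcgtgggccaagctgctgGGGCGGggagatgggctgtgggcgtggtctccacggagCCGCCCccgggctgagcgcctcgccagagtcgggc
Slit2: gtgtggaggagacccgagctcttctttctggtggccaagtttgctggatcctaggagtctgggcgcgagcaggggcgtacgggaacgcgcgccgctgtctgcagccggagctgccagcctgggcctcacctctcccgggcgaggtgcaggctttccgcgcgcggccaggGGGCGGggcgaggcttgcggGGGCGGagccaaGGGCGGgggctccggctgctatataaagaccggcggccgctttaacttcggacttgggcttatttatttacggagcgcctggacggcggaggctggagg
Robo1: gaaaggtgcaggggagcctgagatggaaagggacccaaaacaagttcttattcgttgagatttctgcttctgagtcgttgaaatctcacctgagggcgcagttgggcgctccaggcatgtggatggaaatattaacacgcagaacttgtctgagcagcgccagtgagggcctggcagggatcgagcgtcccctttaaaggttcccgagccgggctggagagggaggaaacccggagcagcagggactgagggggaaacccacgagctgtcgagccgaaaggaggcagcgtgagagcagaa
Sema3e and Plxnd1 had 2 GC boxes and 2 ETS-type motifs each, Slit2 had 3 GC boxes and no ETS-type motif, and Robo1 had neither. The TATA box TATAAA, also searched on both strands and left in lower case, occurred once, in Slit2. Of the 66 member genes 56 matched the promoter table, with 72 promoters. The GC box occurred in 72.2% of these 72, against 35.7% of all 32851 promoters of the same length. The ETS-type motif occurred in 36.1% of member promoters and 35.4% of all, and the TATA box in 2.78% of member promoters and 13.6% of all. Among called members with an entry, 5 of 6 promoters of genes higher in EOM and 8 of 10 promoters of genes lower in EOM held a GC box. So did 31 of 45 promoters (68.9%) of tested members that did not pass. These are matches of letters and no evidence of a bound factor.

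The secreted semaphorins moved in both directions. Of 7 Sema3 genes tested, Sema3c and Sema3e rose in EOM and Sema3g fell. Sema3e, which can bind Plxnd1 without a neuropilin, had signals from 47.9 to 164 in EOM (median 85.9), against 3.2 to 36.1 in TA (median 13.0). The groups did not overlap, and the TA signals lie at the low end of the array's range. Sema3e was at a log2 fold change of 1.76 ± 0.36 (SE, adjusted p = 0.00428) and stayed past the threshold in every alternative in which the probe set was tested. The gene's other probe sets were dim, fell under the level filter and overlapped between the groups. They averaged 36.9, 26.1 and 9.72 in EOM and 24.2, 23.2 and 8.65 in TA. Sema3c, a guidance cue of heart and vessel development, had signals from 155 to 1516 in EOM (median 1272), against 114 to 666 in TA (median 228). EOM 1 was the one EOM array inside the range of TA, and the other 5 EOM arrays were at 944 or more. Sema3c differed by 1.78 ± 0.50 (adjusted p = 0.0330) over all arrays and by 2.26 ± 0.34 (adjusted p = 8.99e-05) when EOM 1 was left out. Leaving out any one of EOM 0, 2, 3, 5 or 6 or TA 1, 2, 3 or 5 ended the call, with an adjusted p of at most 0.0906, as did quantile normalization (adjusted p = 0.0791) and median centring (adjusted p = 0.159). A second probe set of Sema3c passed too, at 1.06 ± 0.28 (adjusted p = 0.0214).

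Sema3g, a secreted semaphorin known from arterial endothelium, fell most among all members. Its signals ran from 45.0 to 166 in EOM (median 75.1), against 134 to 1317 in TA (median 463). Only EOM 5 lay above the lowest TA array, TA 3. Sema3g was at -2.30 ± 0.42 (adjusted p = 0.00150), and no alternative run here ended the call. For Sema3f, a repellent that acts through Nrp2, the signals ran from 122 to 618 in EOM (median 157) and from 185 to 614 in TA (median 377). The highest EOM value was EOM 1, and the other 5 EOM arrays, at 184 or less, lay below every TA array. Sema3f did not pass with 12 arrays (-0.86 ± 0.37, adjusted p = 0.187) and was at -1.19 ± 0.27 (adjusted p = 0.00425) without EOM 1. The mean of its tested probe sets passed with 12 arrays (-0.87, adjusted p = 0.00825). Sema3b, a secreted semaphorin, was at 1.88 ± 0.78 (adjusted p = 0.176). It had 9.8 on EOM 1 and 392 to 659.9 on the other EOM arrays, against 4.8 to 408 in TA, and without EOM 1 it was at 2.60 ± 0.56 (adjusted p = 0.00318). With 12 arrays the mean of its tested probe sets passed (1.30, adjusted p = 0.0303). Sema3a, a classic repellent of axons that binds Nrp1, had 85.4 to 227 in EOM and 47.3 to 256 in TA (0.48 ± 0.37, adjusted p = 0.544). Sema3d was at 0.65 ± 0.35 (adjusted p = 0.326).

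Among the membrane-bound semaphorins every call was lower in EOM. Sema7a, which is held in the membrane by a lipid anchor and binds Plxnc1 and integrins, had signals from 105 to 385 in EOM (median 157), against 472 to 1506 in TA (median 842). The groups did not overlap, although EOM 1 was the highest EOM array. Its log2 fold change was -2.23 ± 0.32 (adjusted p = 0.000138), past the threshold in all alternatives. Sema6a, a transmembrane ligand of Plxna2 and Plxna4, had 27.1 to 129 in EOM (median 38.4), against 113 to 304.5 in TA (median 210.5). EOM 1 was above TA 2 and TA 3, and the other 5 EOM arrays were at 48.3 or less. Sema6a was at -1.73 ± 0.34 (adjusted p = 0.00266). Its other tested probe set was at -0.11 ± 0.41 (adjusted p = 0.941), and with the mean of both the gene did not pass (-0.92, adjusted p = 0.0800). Sema4d, a ligand of Plxnb1 also known from lymphocytes, had 81.4 to 162 in EOM (median 101), against 136 to 339 in TA (median 212). EOM 5 was above TA 1 and the other arrays kept apart by group. Its log2 fold change of -0.91 ± 0.27 (adjusted p = 0.0401) was close to the threshold. Leaving out any one of EOM 0, 2, 3 or 6 or TA 0, 5 or 6 ended the call (adjusted p up to 0.105), and so did quantile normalization (0.0755), median centring (0.169), the absence of a level filter (0.0732) and the absence of an intensity trend (0.0510).

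Sema6d, a transmembrane semaphorin of heart and immune cells, differed between its probe sets. The one with the higher mean had 8.0 on EOM 1 and 170.2 to 288 on the other EOM arrays, against 236 to 549 in TA. It did not pass (-1.34 ± 0.47, adjusted p = 0.0967), and without EOM 1 it did (-0.81 ± 0.24, adjusted p = 0.0248). The other probe set had 32.0 to 64.5 in EOM and 79.0 to 154 in TA, with no overlap, and passed at -1.24 ± 0.27 (adjusted p = 0.00624). The other membrane-bound semaphorins, Sema4a, Sema4b, Sema4c, Sema4f, Sema4g, Sema5a, Sema5b, Sema6b and Sema6c, did not pass, with estimates between -0.94 for Sema4f and 0.53 for Sema6c. Sema4c gave signals from 1152.5 to 3207 in EOM and from 1066 to 1675 in TA, a log2 fold change of 0.27 ± 0.26 (adjusted p = 0.662).

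Of the 9 plexins, the receptors of the semaphorins, Plxnd1 was the one whose brightest probe set passed with 12 arrays. Plxnd1, the receptor of Sema3e and a regulator of vessel patterning, had signals from 96.3 to 189 in EOM (median 145), against 304.5 to 816 in TA (median 604). The groups did not overlap. Plxnd1 was at -1.82 ± 0.28 (adjusted p = 0.000289), past the threshold in all alternatives. The ligand Sema3e was thus higher in EOM and its receptor Plxnd1 lower. Plxna2, which binds Sema6a, was at -0.58 ± 0.28 (adjusted p = 0.265) on its brightest probe set, and without EOM 1, TA 3 and TA 5 it passed at -0.82 ± 0.24 (adjusted p = 0.0245). Of its 3 other tested probe sets 2 passed with 12 arrays, at -1.27 ± 0.32 (adjusted p = 0.0171) and -1.32 ± 0.36 (adjusted p = 0.0279), and the remaining one was at -0.01 ± 0.58. Plxnb1, a receptor of Sema4d, had 104 to 546 in EOM and 127 to 319.5 in TA. EOM 1 was far above the other EOM arrays, which reached 132 at most. It was at -0.35 ± 0.36 (adjusted p = 0.691), and with array weights it passed (adjusted p = 0.0321). Plxna1, a signalling partner of the neuropilins, had 107 to 283 in EOM and 78.0 to 222 in TA (0.34 ± 0.29, adjusted p = 0.603). The other plexins had estimates between -0.29 for Plxnb3 and 0.57 for Plxnb2, and Plxnc1, the receptor of Sema7a, was at 0.09 ± 0.49 (adjusted p = 0.965).

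The neuropilins, co-receptors of the Sema3 proteins and of VEGF, were not members by their symbols and were both lower in EOM. Nrp1 had signals from 1324 to 1680.4 in EOM, against 3320.4 to 4994 in TA (-1.39 ± 0.21, adjusted p = 0.000241). Nrp2 had 37.8 to 120.2 in EOM, against 217 to 374 in TA (-2.09 ± 0.27, adjusted p = 5.88e-05). For neither gene did the groups overlap. The A-type plexins, which signal with the neuropilins, did not pass by their brightest probe sets and lay on both sides of 0, at 0.34 for Plxna1, -0.58 for Plxna2, 0.48 for Plxna3 and -0.28 for Plxna4. Of the marker sums given above, the endothelial, the pericyte and smooth muscle, and the leukocyte sums were lower on every EOM array than on any TA array. The neuronal sum was higher on every EOM array, and the fibroblast, glial and satellite cell sums overlapped. The part of any cell type in the fall of the neuropilins was not tested.

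**Figure D2:**
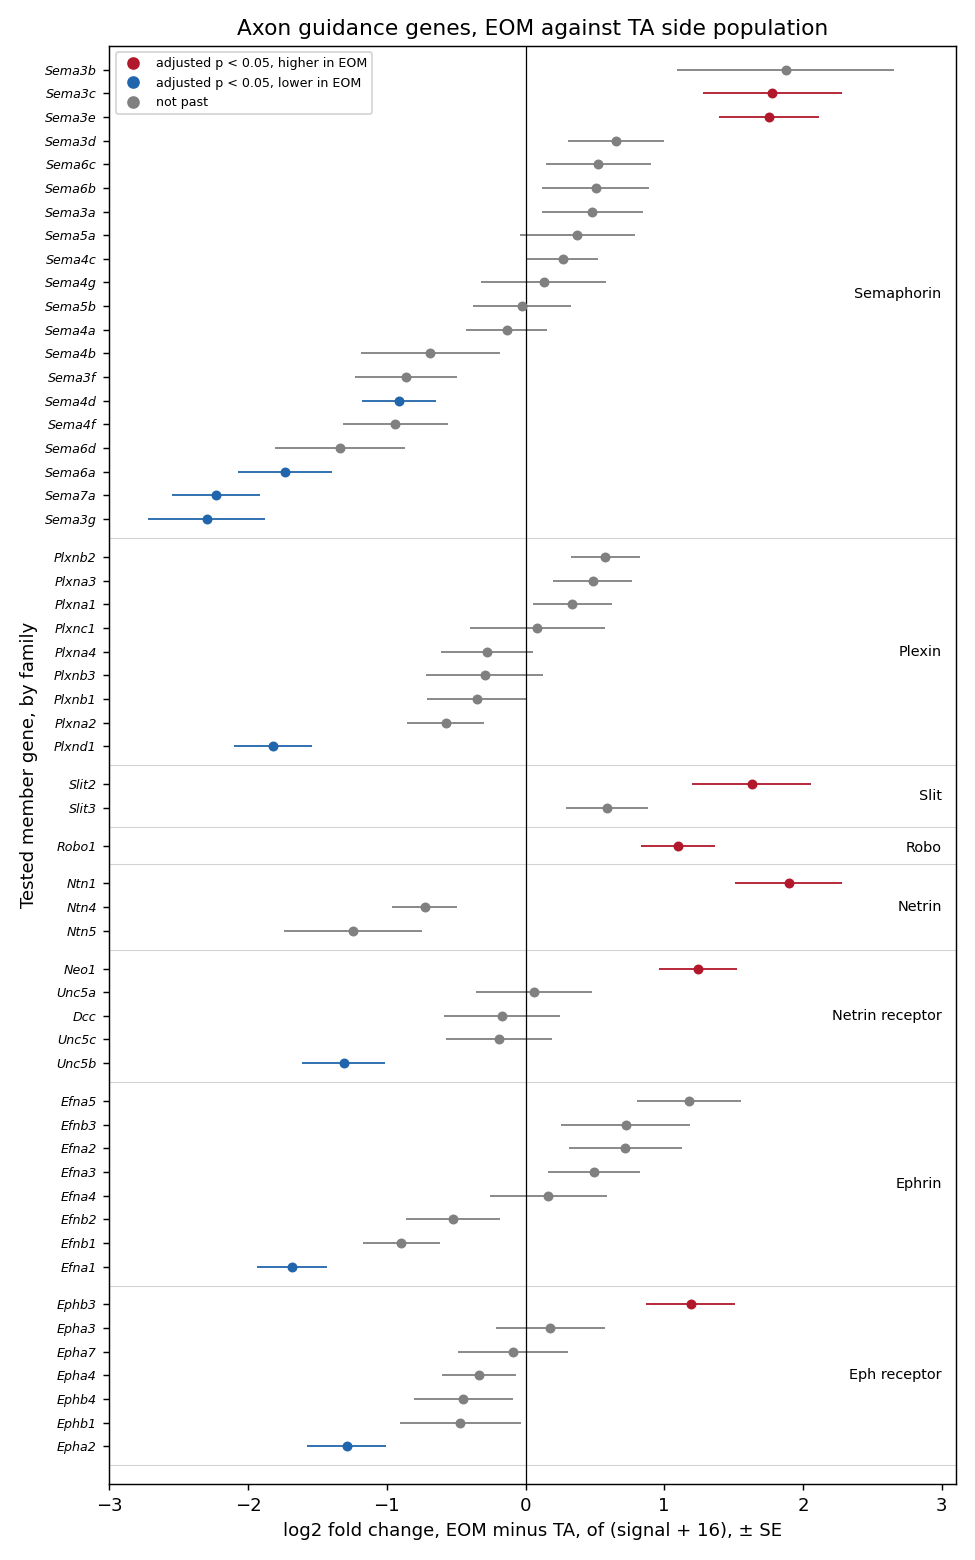
Log2 fold change, EOM minus TA, with its standard error for the 55 tested member genes, grouped by family down the page. Red points are the 7 genes past the threshold and higher in EOM, blue points the 8 that are lower, and grey points the 40 that did not pass.

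Slit2 and its receptor Robo1 were both higher in EOM. Slit2, a secreted repellent, had signals from 109 to 253 in EOM (median 222), against 6.3 to 121 in TA (median 81.2). EOM 1 lay below TA 1 and TA 2, and the other 5 EOM arrays, at 205 or more, lay above all TA arrays. Slit2 was at 1.63 ± 0.43 (adjusted p = 0.0223). Without EOM 1 it was 1.79 ± 0.41 (adjusted p = 0.00521), and without EOM 1, TA 3 and TA 5 it was 1.10 ± 0.22 (adjusted p = 0.00162). The call ended without EOM 2 (adjusted p = 0.0561) or EOM 6 (adjusted p = 0.0549), and with quantile normalization (0.0834) or median centring (0.107). The other probe sets of Slit2 fell under the level filter and overlapped between the groups. They averaged 10.4 and 20.3 in EOM and 9.33 and 32.3 in TA. Robo1, the receptor through which Slits repel axons, had signals from 190.3 to 273 in EOM (median 214), against 56.2 to 140.3 in TA (median 98.5). The groups did not overlap, and the log2 fold change was 1.10 ± 0.26 (adjusted p = 0.0124). A dimmer probe set of Robo1 was at 0.27 ± 0.58 (adjusted p = 0.883), and the mean of both did not pass (0.68, adjusted p = 0.238). Slit3, another Slit ligand, had 329 to 763 in EOM and 165 to 558 in TA, and was at 0.59 ± 0.30 (adjusted p = 0.290). Slit1, Robo2 and Robo3 fell under the level filter. Robo4, the Robo of endothelial cells, was not a member by the naming rule and fell in EOM (36.8 to 228, against 402 to 1467 in TA), at -2.95 ± 0.39 (adjusted p = 5.92e-05).

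Netrin 1 and neogenin rose in EOM and Unc5b fell. Ntn1, a secreted laminin-like cue, had signals from 325 to 2279.8 in EOM (median 1509), against 219 to 539.6 in TA (median 338). EOM 1 was inside the range of TA, and the other 5 EOM arrays were at 1403.5 or more. Ntn1 rose by 1.90 ± 0.39 on the log2 scale with 12 arrays (adjusted p = 0.00382), and by 2.28 ± 0.24 when EOM 1 was left out (adjusted p = 2.33e-06). Median centring ended the call (1.99, adjusted p = 0.0560), and a dim probe set was at 0.28 ± 0.54 (adjusted p = 0.864). Neo1, a receptor for netrins and for repulsive guidance molecules (RGMs), had 1444 to 3163 in EOM (median 2211), against 625 to 1728 in TA (median 799). EOM 2 and EOM 3 were below TA 1, while the next highest TA array had 1074. Neo1 was at 1.24 ± 0.28 (adjusted p = 0.00855). The 3 other tested probe sets of Neo1 were at 1.33, -0.35 and -0.45 and did not pass, and the mean of all 4 did not pass (0.44, adjusted p = 0.304).

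Unc5b, a netrin receptor known for repulsive signals and from vessel sprouting, had signals from 75.1 to 138 in EOM (median 106), against 136 to 536 in TA (median 286). EOM 2 was above TA 2 by a small margin, and all other arrays kept apart by group. It was at -1.31 ± 0.30 (adjusted p = 0.00872), and median centring ended the call (-1.22, adjusted p = 0.0978). Its other tested probe set was at -0.65 ± 0.37 (adjusted p = 0.363). Dcc, the attractive netrin receptor, had 7.4 to 85.8 in EOM and 37.3 to 180.0 in TA (-0.17 ± 0.42, adjusted p = 0.900), the highest value on TA 3. Unc5c (-0.19 ± 0.38, adjusted p = 0.870) and Unc5a (0.06 ± 0.42, adjusted p = 0.968) did not pass. The basement membrane netrin Ntn4 had 305 to 464 in EOM and 423 to 767 in TA. It was at -0.73 ± 0.23 (adjusted p = 0.0678) with 12 arrays and passed without EOM 1 (-0.69, adjusted p = 0.0380), without TA 6, with array weights and with a filter on the lowest 60%. Ntn5 was dim, at 7.8 to 102.5 in EOM and 16.3 to 223 in TA, and was at -1.24 ± 0.50 (adjusted p = 0.154), or -1.59 ± 0.43 (adjusted p = 0.0147) without EOM 1. Of the RGM ligands of neogenin, Rgmb was at 0.80 ± 0.35 (adjusted p = 0.198) and passed without EOM 1, and Rgma was at 0.12 ± 0.32 (adjusted p = 0.915).

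Efna1 and its receptor Epha2 were both lower in EOM. Efna1, a lipid-anchored ephrin induced in endothelium, had signals from 34.6 to 70.1 in EOM (median 51.5), against 164.5 to 286 in TA (median 180.3). The groups did not overlap. Efna1 was at -1.68 ± 0.26 (adjusted p = 0.000260), past the threshold in all alternatives. Epha2, an Eph receptor of epithelial and endothelial cells, had 63.6 to 122 in EOM (median 77.0), against 106 to 353 in TA (median 245). TA 2 lay below EOM 0 and EOM 5, and the other 5 TA arrays were at 222 or more. Epha2 was at -1.29 ± 0.29 (adjusted p = 0.00702), and median centring ended the call (-1.19, adjusted p = 0.0573). Efna5, a repellent of axons, had 156 to 244 in EOM and 11 to 198 in TA. It was at 1.18 ± 0.37 (adjusted p = 0.0633) and passed without EOM 1 (1.19, adjusted p = 0.0381), without TA 3 (1.42, adjusted p = 0.0149), with an added constant of 64 and with array weights. The remaining A-type ephrins, Efna2, Efna3 and Efna4, did not pass, at 0.72, 0.49 and 0.17.

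Ephb3 was the one B-type member that passed, and it rose in EOM. This receptor of the transmembrane ephrins had signals from 327 to 1147 in EOM (median 476), against 123 to 399 in TA (median 232). EOM 5 lay below TA 3, and EOM 1 was the highest array. Ephb3 was at 1.19 ± 0.32 (adjusted p = 0.0262). Leaving out EOM 0 (adjusted p = 0.0734), TA 0 (0.0525), TA 1 (0.0535) or TA 6 (0.0636) ended the call, as did quantile normalization (0.0674). Efnb2, the ephrin of arterial endothelium, had 212 to 999.6 in EOM and 331 to 913 in TA, the highest value on EOM 1. It was at -0.52 ± 0.34 (adjusted p = 0.448), and without EOM 1, TA 3 and TA 5 it passed at -0.82 ± 0.24 (adjusted p = 0.0217). Ephb4, the venous receptor of Efnb2, had 22.0 to 118 in EOM and 31.8 to 108 in TA (-0.45 ± 0.35, adjusted p = 0.570). Efnb1 had 146 to 441 in EOM, where EOM 1 was highest and the other 5 arrays were at 194 or less, against 294 to 539 in TA. It missed the threshold at -0.89 ± 0.28 (adjusted p = 0.0564), and when EOM 1 was left out it passed at -1.11 ± 0.22 (adjusted p = 0.00133). The other tested probe sets of Efnb1 were at -0.44 ± 0.35 (adjusted p = 0.577) and -0.12 ± 0.31 (adjusted p = 0.907). The mean of its tested probe sets, at -0.48, did not pass. The Eph receptors Epha3 (0.18 ± 0.39, adjusted p = 0.884), Epha4 (-0.34 ± 0.27, adjusted p = 0.569), Epha7 (-0.09 ± 0.40, adjusted p = 0.953) and Ephb1 (-0.47 ± 0.44, adjusted p = 0.649) did not pass, nor did Efnb3 (0.72 ± 0.47, adjusted p = 0.444).

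**Figure D3:**
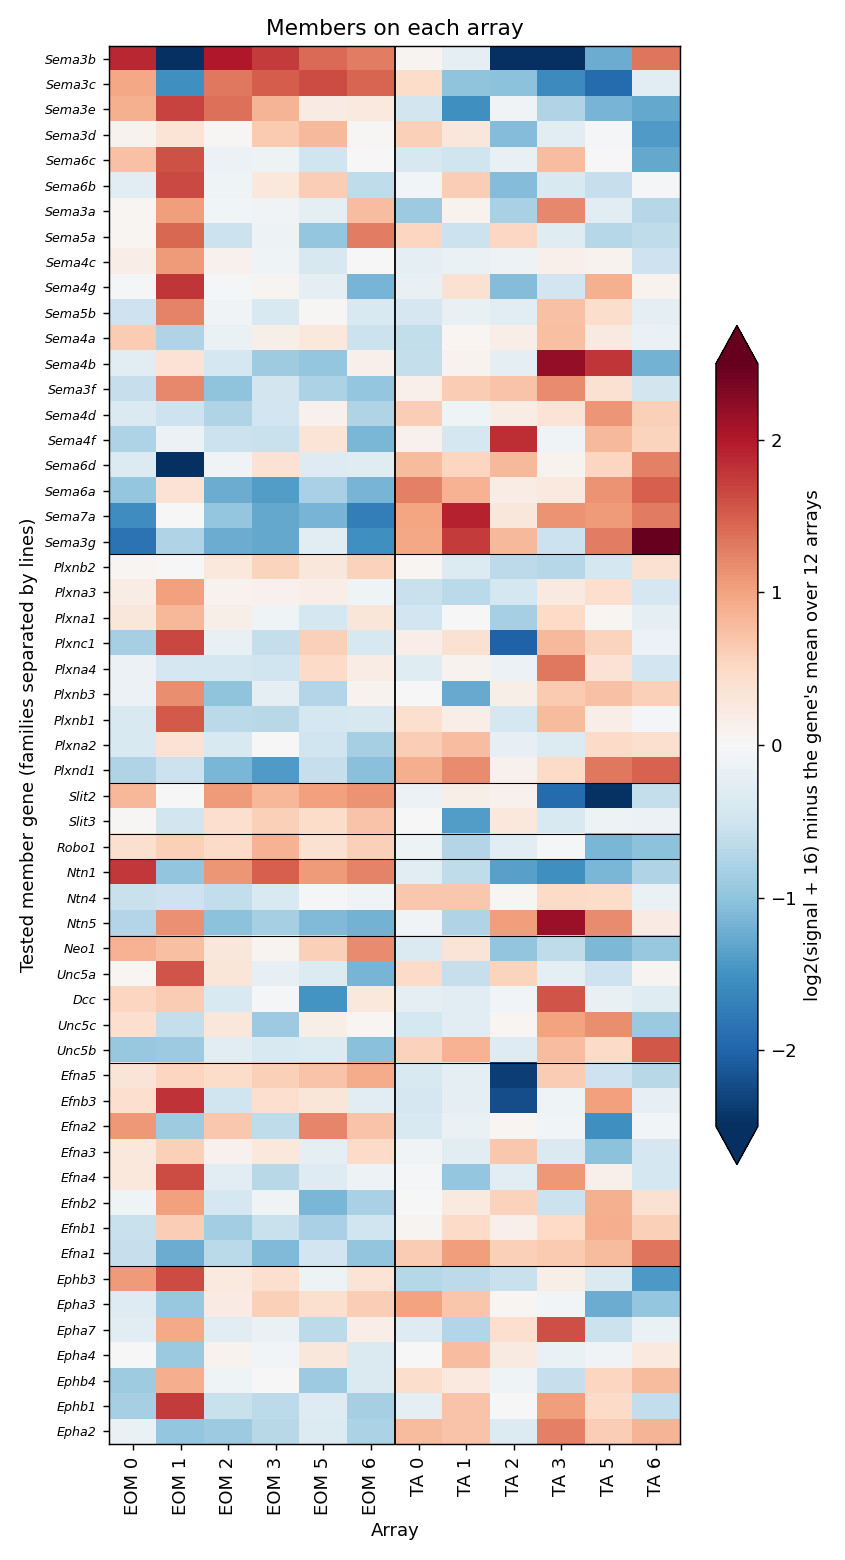
Each tested member gene (rows, families separated by lines) on each array (columns, EOM left of TA), as log2(signal + 16) minus the gene's mean over the 12 arrays. Red is above and blue below the gene's mean; the EOM 1 column departs from the other EOM columns in many rows, among them Sema3b, Sema3c, Sema6d and Ntn1 (lower) and Plxnb1 and Ephb1 (higher).

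Without EOM 1, 7 further members passed. Sema3b and Efna5 were called higher, and Sema3f, Sema6d, Ntn4, Ntn5 and Efnb1 lower. All 7 also passed with array weights. In that fit 5488 of the 27022 tested probe sets passed, against 2225 in the main fit. Array weights can lower the part of an array that departs from the others, so that fit is not a check apart from leaving out EOM 1. Without EOM 1, TA 3 and TA 5 the gains were Sema3b, Sema3f, Sema6d, Plxna2, Ntn5, Efna5, Efnb1 and Efnb2. No call made with 12 arrays was lost in either fit. At the level of probe sets, 19 of 86 tested passed with 12 arrays (8.23% of all tested probe sets passed), and 31 passed without EOM 1 (16.1% of all) and 31 without EOM 1, TA 3 and TA 5 (17.3% of all). Of 22 member genes with several tested probe sets, 5 had estimates that differed in sign (Sema6c, Plxnc1, Neo1, Efna2 and Efnb2) and 0 had calls in both directions. In 7 the probe sets differed in whether they passed (Sema6a, Sema6d, Plxna2, Robo1, Ntn1, Neo1 and Unc5b).

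**Figure D4:**
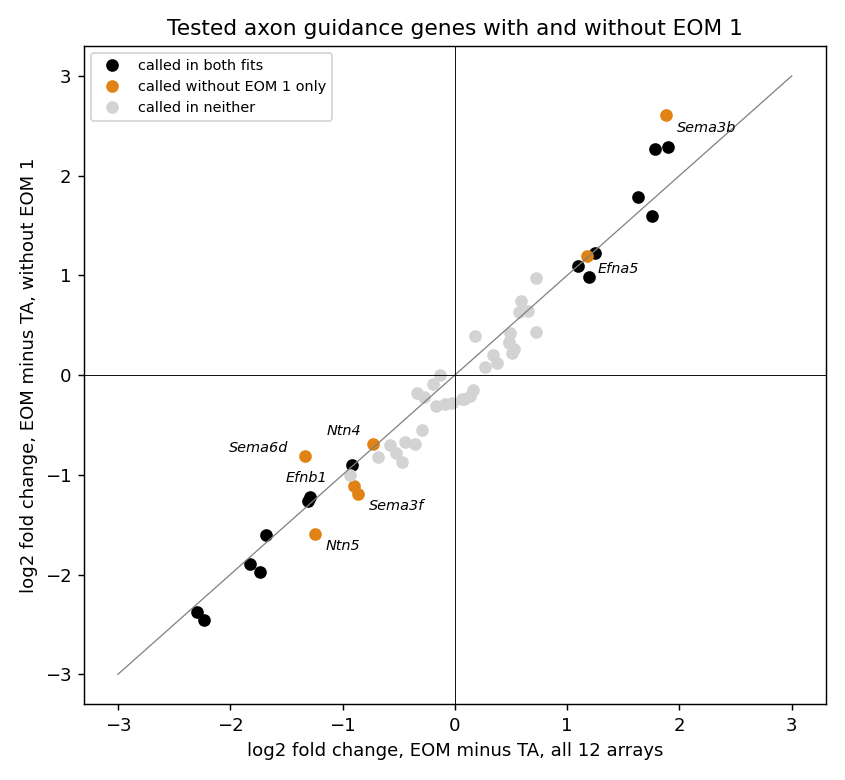
Log2 fold change, EOM minus TA, of the 55 tested members with all 12 arrays (horizontal axis) and without EOM 1 (vertical axis), with the line of equality. Black points are the 15 genes called in both fits, and the 7 orange points, named, were called only when EOM 1 was left out.

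The 11 member genes that were not tested were Slit1, Robo2, Robo3, Ntn3, Unc5d, Epha1, Epha5, Epha6, Epha8, Epha10 and Ephb6. Their 18 probe sets had group means between 5.20 and 45.4 in both muscles. The level filter keeps a gene that is high in one group more readily than one low in both, so the 55 tested genes do not stand for all 66.

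Co-receptors, further ligands and effectors of the same pathways were described from a list that holds none of the members. Its effector part is mainly cytoplasmic but also holds membrane-bound proteins such as the protease Adam10. Of 95 tested 6 were higher and 15 lower in EOM, where 4.05% of all genes tested were higher and 6.81% lower. The median of the list was -0.08. With EOM 0, EOM 2 or EOM 3 alone left out, 2 were higher and 12 lower. Calls over all tested probe sets fell in these fits too, from 2225 to 1637, 1579 and 1649. Among 28 co-receptors and other ligands 3 were higher and 7 lower. The largest increase was in Cdon, a receptor that promotes muscle differentiation and binds neogenin, with signals from 486 to 2641 in EOM, against 158 to 406 in TA (2.54 ± 0.36, adjusted p = 0.000144). Met, the HGF receptor that partners with B-type plexins, had 152 to 609 in EOM and 3.2 to 126 in TA (2.37 ± 0.45, adjusted p = 0.00216). The adhesion molecule Cntn1 passed at 1.12 ± 0.34 (adjusted p = 0.0474), and lost the call in 9 of the 12 fits with 1 array left out (adjusted p up to 0.112). Cdon and Met kept their calls in all 12. The laminin receptor subunit Itga6 fell most, with 76.7 to 164 in EOM, against 1158 to 3049.7 in TA (-3.81 ± 0.28, adjusted p = 2.24e-07). The VEGF receptor Kdr fell too (136 to 239 in EOM, 705 to 2586 in TA, -2.85 ± 0.33, adjusted p = 1.81e-05), and it, Robo4, Nrp1 and Nrp2 are also known from endothelium. Kdr and Robo4 are themselves among the endothelial markers counted and summed above, so their fall is not a separate observation.

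Among 67 genes of the effector part 3 were higher and 8 lower in EOM, beside the same shares of 4.05% and 6.81% over all genes. Ablim3, an actin-binding LIM protein, had 38.0 to 134 in EOM and 314 to 1419 in TA (-3.26 ± 0.36, adjusted p = 1.07e-05). The filopodial motor Myo10 was at -2.18 ± 0.31 (adjusted p = 0.000142). For neither gene did the groups overlap. Of the effectors that rose, Trio is an exchange factor downstream of netrin and Srgap3 a Slit-Robo GTPase-activating protein. Rnd3 was at 1.84 ± 0.51 (adjusted p = 0.0308), Trio at 1.65 ± 0.47 (adjusted p = 0.0344) and Srgap3 at 1.11 ± 0.29 (adjusted p = 0.0199). With 1 array left out, Rnd3 lost the call in 7 of 12 fits (adjusted p up to 0.0874), Trio in 8 (up to 0.0908) and Srgap3 in 4 (up to 0.0579). EOM 1 lay below the other 5 EOM arrays for Rnd3 (289.8, against 2149 or more) and for Trio (204, against 1043 or more), and all 3 genes passed without it. For the whole list of 95 tested genes, 30 passed without EOM 1, 11 higher and 19 lower. Over all genes tested, 10% were higher and 10.5% lower in that fit. Without EOM 1, TA 3 and TA 5, 34 of the list passed, 12 higher and 22 lower. In that fit 10.6% of all genes were higher and 11.2% lower.

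**Figure D5:**
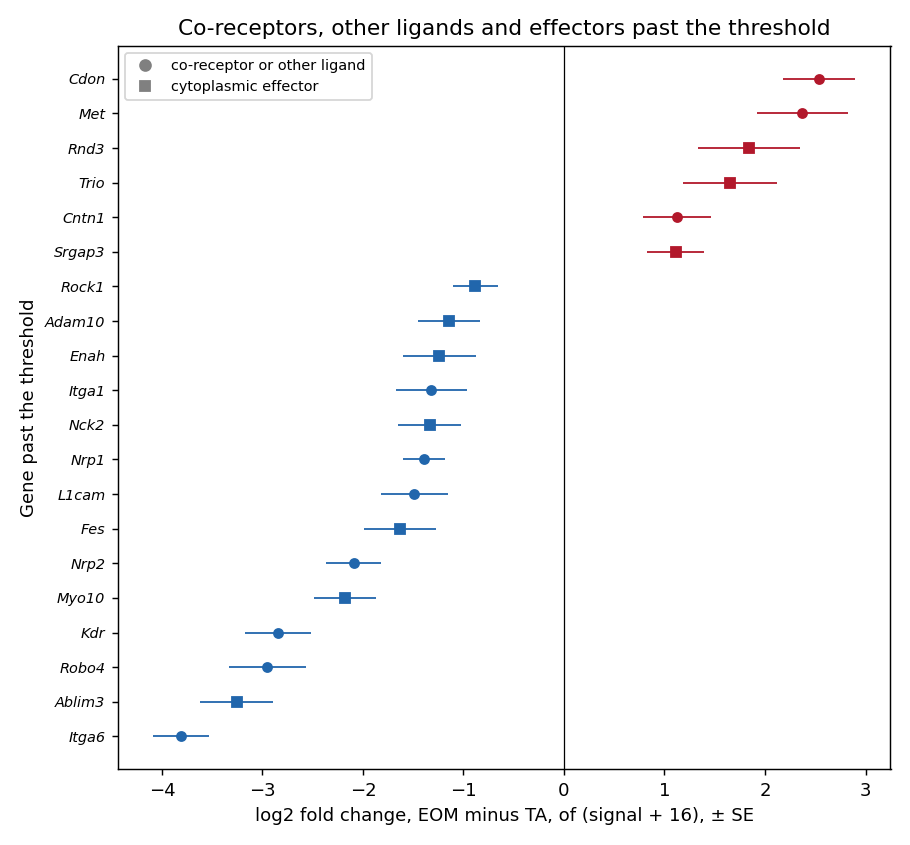
Log2 fold change, EOM minus TA, with its standard error for 20 of the 21 genes of the partner list past the threshold, from Cdon at the top to Itga6 at the bottom. Circles are co-receptors and other ligands, and squares are genes of the effector part of the list, the membrane-bound Adam10 included. Red is higher and blue lower in EOM.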

How the data were processed

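The deposited table holds MAS5 signal intensities, which the authors scaled so that the mean of each array, trimmed by 2% at each end, was 150 on all 12 arrays; MAS5 is named in the submitters' processing notes, and the scaling was read from the values. Present and absent calls were not used here, and 0 columns were left unused. Groups and replicate numbers (0, 1, 2, 3, 5 and 6) come from the titles; no 2 columns were identical.

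Controls (64 probe sets) were removed. Signals were taken as log2(signal + 16), so that fold changes of dim genes are understated, and fitted with limma 3.58.1 in R 4.3.3 (empirical Bayes with an intensity trend, two-sided, Benjamini-Hochberg over 27022 probe sets). All adjusted p-values come from this tool. The fit was also run on simulated data with independent noise in each probe set and no array that stands apart. That run therefore does not cover the effect of an array such as EOM 1. The members and lists were chosen with earlier results of these data known. Genes named with signals are all members past the threshold, a set of well-known members, the partner genes with the largest changes, and genes whose probe sets disagree. The values of 1 partner gene are not reported here. Symbols of all 147 member probe sets matched current names, with 0 changed. Same-numbered EOM and TA arrays had correlations of deviations from -0.32 to 0.16, under 0.1 for some, so the numbers were not taken as pairs. Alternatives changed the added constant, scaling, filter, trend, weights, replicate block, arrays and probe sets used.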

Additional observations from a re-analysis of the deposited data

Results flagged for a closer look

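In each of the 55 tested members and each muscle, the most distant of the 6 arrays was set against the spread of the group on the log2 scale (Dixon's test at the 95% level). Of 110 groups 17 held an array far from the others, where chance gives about 1 in 20 groups, and 13 of the 17 such arrays were EOM 1. EOM 1 lay below the other 5 EOM arrays for Sema3b, Sema3c, Sema6d, Slit2 and Ntn1. Sema3b had a signal of 9.8 on EOM 1 and 392 to 659.9 on the other EOM arrays. Sema3c had a signal of 155 on EOM 1 and 944 to 1516.2 on the other EOM arrays. Sema6d had a signal of 8 on EOM 1 and 170.2 to 288 on the other EOM arrays. Slit2 had a signal of 109 on EOM 1 and 205 to 253 on the other EOM arrays. Ntn1 had a signal of 325 on EOM 1 and 1403.5 to 2279.8 on the other EOM arrays. EOM 1 lay above the other 5 EOM arrays for Sema3f, Sema5b, Sema6a, Plxna3, Plxnb1, Ntn5, Efnb1 and Ephb1. Sema3f had a signal of 618 on EOM 1 and 122 to 184 on the other EOM arrays. Sema5b had a signal of 134 on EOM 1 and 28.5 to 48.2 on the other EOM arrays. Sema6a had a signal of 129 on EOM 1 and 27.1 to 48.3 on the other EOM arrays. Plxna3 had a signal of 239 on EOM 1 and 100.2 to 127 on the other EOM arrays. Plxnb1 had a signal of 546 on EOM 1 and 104 to 132 on the other EOM arrays. Ntn5 had a signal of 102.5 on EOM 1 and 7.8 to 16.5 on the other EOM arrays. Efnb1 had a signal of 441 on EOM 1 and 146 to 194 on the other EOM arrays. Ephb1 had a signal of 228 on EOM 1 and 24.8 to 42.2 on the other EOM arrays.

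The remaining 4 were TA arrays. Plxnb3 had a signal of 8.1 on TA 1 and 41.7 to 79.5 on the other TA arrays. Plxnc1 had a signal of 4.1 on TA 2 and 57.5 to 127 on the other TA arrays. Dcc had a signal of 180.0 on TA 3 and 37.3 to 47 on the other TA arrays. Efna2 had a signal of 12.4 on TA 5 and 47 to 69 on the other TA arrays. The cause was not tested.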

How the results depend on the processing

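The counts of called genes depended most on EOM 1 and on how the arrays were weighted. With 1 array left out, 12 to 22 member genes, 14 to 31 member probe sets, 14 to 30 partner and effector genes and 1579 to 4361 of all probe sets passed; EOM 1 gave the highest of each, against 15, 19, 21 and 2225 with all arrays. With array weights 26 member genes (10 higher and 16 lower), 35 member probe sets, 34 partner genes and 5488 probe sets passed. Without EOM 1, TA 3 and TA 5 the counts were 23, 31, 34 and 4675. Median centring gave 9 member genes, 10 member probe sets, 14 partner genes and 1445 probe sets; its median over all genes lay 0.09 above that of the deposited scaling. The added constant, quantile normalization, the other filters, no intensity trend and averaging over all tested probe sets of each gene left the member count between 11 and 17.

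Of the 15 called members 11 kept their call in all 12 fits with 1 array left out, and 5 (Sema3e, Sema3g, Sema7a, Plxnd1 and Efna1) in every alternative in which they were tested. No call changed direction. With the replicate number as a fixed block 13 member genes and 16 member probe sets passed, and Sema4d (adjusted p = 0.0762) and Ephb3 (0.0551) did not; with a random block 14 genes passed, and Sema4d (0.0577) did not. Partner genes past the threshold were 17 and 19 with the block, and all probe sets 1632 and 1955. Only 1 of 6 EOM arrays correlated best with its own number in TA. The number of arrays limits the precision; MAS5 signals of dim genes carry no detection call here, and the causes of the changes were not tested.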
